A study of Mus musculus with 2 samples.

Results

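The genes examined here make cholesterol, carry it into and through the cell, and control that supply through the transcription factor SREBP2. They were taken by symbol from the deposited tables, and all 29 listed symbols were found among 16263 genes. The genes were ordered by pathway step and divided into 8 enzymes of the early mevalonate segment, 10 enzymes of the late sterol segment, and 11 carriers, regulators and lysosomal exporters. Levels were compared between 2 libraries made from mouse macrophages grown out of bone marrow, 1 from wild-type (WT) C57BL/6 mice and 1 from C57BL/6 mice labelled SIRPα-/- (SIRPα-KO). SIRPα restrains myeloid cells when it meets CD47 on another cell. Marrow cells had been grown for 5 days in medium conditioned with the growth factor M-CSF, and both genotypes then received interferon-γ at 20 ng/ml and lipopolysaccharide at 100 ng/ml for 6 h with mCD47.ex, a reagent that the labels do not describe further. No untreated cells and no cells without mCD47.ex were analysed here, so both libraries describe the activated state. Cells of 5 mice per genotype were pooled before RNA was extracted, which leaves 1 library per genotype, no replicate error and no test.

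Cholesterol is built from acetyl-CoA. The early enzymes make mevalonate and turn it into isoprenoid diphosphates, and the late enzymes join these to squalene, close the ring system and trim it to cholesterol. SREBP2, the product of Srebf2, switches on most of these enzymes. When sterols are plentiful, SREBP2 is held in the endoplasmic reticulum by its escort SCAP and the INSIG proteins; when sterols are scarce, SCAP takes it to the Golgi, where a pair of proteases encoded by Mbtps1 and Mbtps2 release its active part. In macrophages the same system balances sterol made in the cell against sterol taken up with lipoproteins and dying cells, which leaves the lysosome through NPC2 and NPC1.

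The libraries were estimated to hold about 11000000 (WT) and 10900000 (SIRPα-KO) reads. Sirpa itself stood at 153.87 FPKM (WT) and 71.47 FPKM (SIRPα-KO), so its transcript was lower but not absent in the library labelled SIRPα-KO. The macrophage markers were present in both libraries, from 177.24 FPKM (Itgam) to 7106.27 FPKM (Lyz2) in WT and from 109.80 FPKM (Csf1r) to 7207.70 FPKM (Lyz2) in SIRPα-KO. Of these 9 markers 6 were lower in SIRPα-KO, and 1, Csf1r (247.59 and 109.80 FPKM), by more than 2-fold. The 8 neutrophil and precursor markers found in the tables summed to 422.7 FPKM (WT) and 194.1 FPKM (SIRPα-KO), with none at 0 and 7 of 8 lower in SIRPα-KO. The 8 dendritic cell markers summed to 26.82 and 175.0 FPKM, with 4 of 8 higher and 4 lower in SIRPα-KO. Of the 5 that reached 1 FPKM, 3 were more than 2-fold higher: Ccl22, a chemokine (11.19 and 139.11 FPKM), Ccr7, a chemokine receptor (6.93 and 23.81 FPKM), and Dpp4 (1.32 and 4.95 FPKM). The defining dendritic genes Flt3 (0.34 and 0.10 FPKM) and Zbtb46 (0.20 and 0.70 FPKM) were below 1 FPKM in both libraries. The 8 proliferation markers summed to 124.8 and 120.9 FPKM, most of it Pcna (106.15 and 108.57 FPKM), while Mcm6 was lower (8.62 and 1.08 FPKM) and Mki67 stood at 3.49 and 6.70 FPKM. Lists of B cell, T and NK cell, erythroid, mast cell and stromal markers each summed to less than 10 FPKM in both libraries, with Cd3e and Ncr1 listed at 0 in WT and Klrb1c at 0 in SIRPα-KO. The part of these shifts in the results below was not tested, and in bulk RNA fewer cells of a type and less RNA per cell cannot be told apart. Xist stood at 47.54 FPKM (WT) and 0.91 FPKM (SIRPα-KO), and the Y-linked gene Eif2s3y was listed at 0 (WT) and 21.41 FPKM (SIRPα-KO), so the sex of the pooled mice and the genotype cannot be told apart.

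Promoters of members were read from RefSeq (assembly GRCm38.p6) as windows of 300 bases, from 250 bases before to 50 bases after a start site. Windows were held for 24 of the 29 members. They are shown because several members are known targets of SREBP2, which binds a sterol response element next to sites of its partner NF-Y. Whether SREBP2 has a part in the differences between the libraries was not tested. The windows printed are those of the members with the largest ratios that hold the core of the sterol response element, searched as CACNCCAC on both strands. Capitals mark matches to that core and to the NF-Y box CCAAT, or to their reverse complements. Each sequence runs 5′ to 3′ along the strand of its gene. Hmgcs1 lies at chr13:119690101-119690400 on the plus strand, Insig1 at chr5:28071162-28071461 on the plus strand, and Acat2 at chr17:12960676-12960975 on the minus strand.
Hmgcs1: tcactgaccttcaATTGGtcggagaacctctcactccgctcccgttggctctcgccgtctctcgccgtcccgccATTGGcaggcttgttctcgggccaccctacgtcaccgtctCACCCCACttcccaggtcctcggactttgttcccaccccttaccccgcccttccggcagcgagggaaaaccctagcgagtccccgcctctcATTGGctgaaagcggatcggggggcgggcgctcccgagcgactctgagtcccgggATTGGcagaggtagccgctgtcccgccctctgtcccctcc
Insig1: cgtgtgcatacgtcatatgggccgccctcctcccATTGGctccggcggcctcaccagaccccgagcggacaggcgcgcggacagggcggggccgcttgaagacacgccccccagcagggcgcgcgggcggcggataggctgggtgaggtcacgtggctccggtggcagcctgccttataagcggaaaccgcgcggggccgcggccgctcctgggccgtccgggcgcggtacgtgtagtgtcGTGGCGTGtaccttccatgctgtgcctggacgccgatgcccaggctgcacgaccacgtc
Acat2: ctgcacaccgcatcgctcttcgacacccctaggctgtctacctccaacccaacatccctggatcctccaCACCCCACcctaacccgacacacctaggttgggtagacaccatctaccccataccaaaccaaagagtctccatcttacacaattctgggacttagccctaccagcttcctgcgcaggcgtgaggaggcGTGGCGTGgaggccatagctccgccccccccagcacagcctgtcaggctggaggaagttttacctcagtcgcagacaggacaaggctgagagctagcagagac

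The Hmgcs1 window holds 1 core match, at bases -136 to -129 counted from the first transcribed base as 0, and 4 NF-Y boxes. The Insig1 window holds 1 core match at bases -9 to -2, 1 NF-Y box and 1 E-box (CACGTG), the other kind of sequence that SREBP proteins bind. The Acat2 window holds 2 core matches and no NF-Y box. These were the only members with a core match, 3 of 24 (12.5%), against 7.25% of the 8060 kept genes with a window. NF-Y boxes were in at least 1 window of 20 of 24 members (83.3%), against 42.3% of kept genes. The Sp1 box GGGCGG was in 20 of 24 members (83.3%), against 68.1%, and the E-box in 6 of 24 (25.0%), against 12.2%. No match of any of these motifs overlapped a match of another in the member windows. The 4 members with a window that were at least 2-fold higher in SIRPα-KO, described next, all held an NF-Y box and an Sp1 box. Of these 4, 2 held the core. Of the 20 other members with a window, 16 (80.0%) held an NF-Y box, 16 (80.0%) an Sp1 box and 1 (5.0%) the core. Both boxes were thus common among the members whether called or not. No window was held for Fdps and Stard4, which were also at least 2-fold higher. A match is a description of letters and not a measured binding site.

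**Figure D1:**
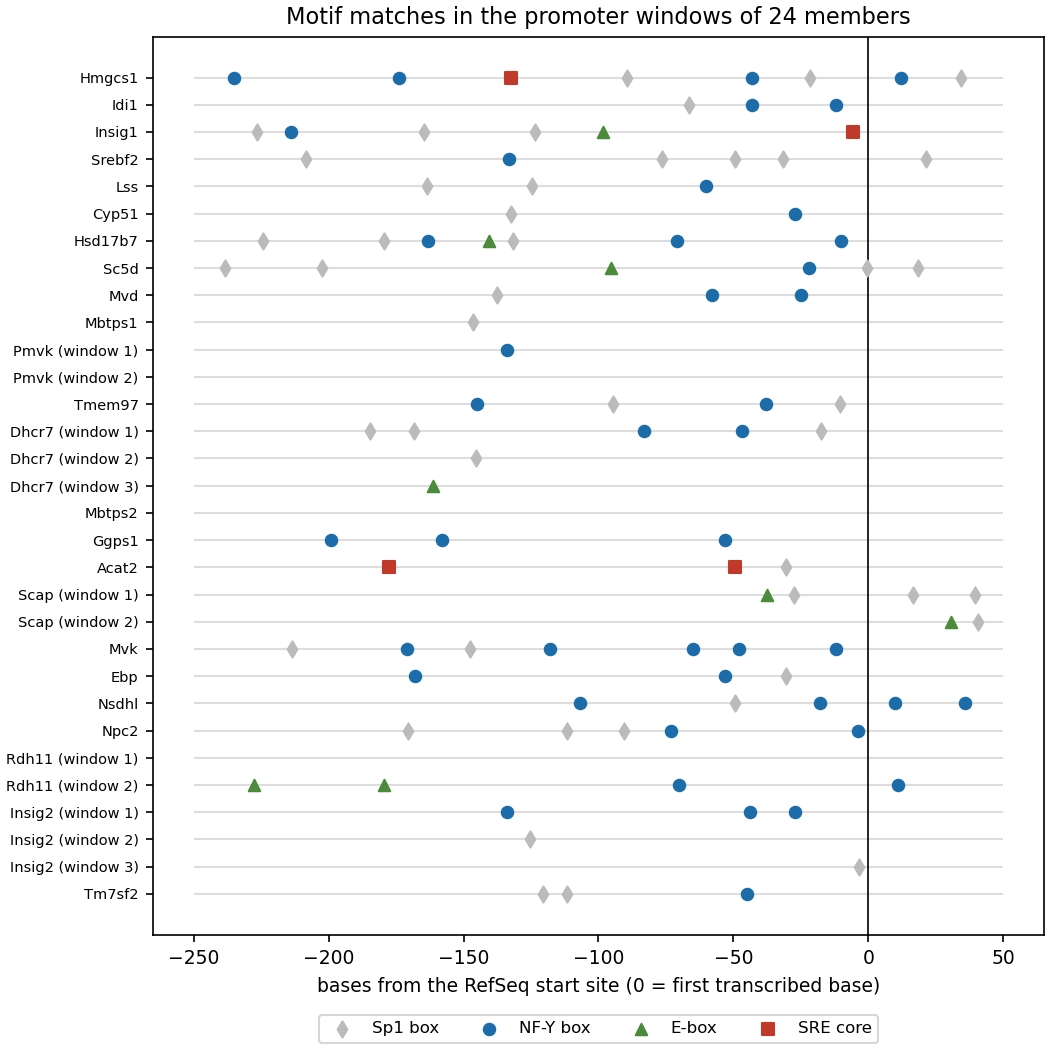
Positions of motif matches in the 31 promoter windows of 24 members, ordered from the highest to the lowest ratio; the horizontal axis is the distance in bases from the RefSeq start site, and each symbol is 1 match to the sterol response element core, the NF-Y box, the E-box or the Sp1 box. NF-Y boxes occur in 20 of the 24 members, and the core in 3 (Hmgcs1, Insig1 and Acat2).

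Levels are given as FPKM (fragment counts divided by transcript length and library size), and differences as log2(FPKM + 1) in SIRPα-KO minus WT, called the log2 ratio; adding 1 shrinks the differences of genes near or below 1 FPKM. Genes counted as called when this difference reached 2-fold, and the kept genes were the 10092 that reached 1 FPKM in either library. On this scale 6 of the 29 members, 26 of them kept, were called higher in SIRPα-KO and 0 lower. Of all kept genes 3.43% were called higher and 4.3% lower (7.73% together). The 6 were Hmgcs1, Idi1 and Fdps among the early enzymes and Stard4, Insig1 and Srebf2 among the carriers and regulators. Stard4 reached 1 FPKM only in SIRPα-KO, where it was higher, so the count of 6 is a description and not read as support. Without regard to size, 21 of the 29 members were higher in SIRPα-KO and 8 were lower; the ratio was above 0 for 56.1% of kept genes. The median log2 ratio was 0.17 over all 29 members and 0.06 over all kept genes. The members were therefore uneven: a minority differed several-fold and most differed little.

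Of the 29 members 26 were kept. Tm7sf2, Hsd17b7 and Dhcr7 were below 1 FPKM in both libraries, and Acat2, Sqle, Lss and Stard4 passed only through the SIRPα-KO library. The kept members had a median log2 ratio of 0.19, which is not read as support for that reason. With a scaling that equalizes the median gene, or the trimmed mean of genes, 5 members were called higher, Fdps being just under 2-fold, where 3.01% and 3.04% of all kept genes were called higher.

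To separate these differences from counting error, an exact binomial interval (95%) was made for each ratio from the approximate number of reads behind it. Intervals cover counting error only and not the variation between mice or cultures. They lay wholly above 0 for 12 of 29 members and wholly below 0 for 3, and held 0 for 14. Over all kept genes with a transcript length the interval lay wholly above 0 for 32.5% and wholly below 0 for 22.8%, so intervals away from 0 were common among genes in general. By size of the ratio, 7 of the 29 members were among the top 5% of kept genes, and Stard4 and Hmgcs1 ranked 63 and 78 of 10092. That count and the rank of Stard4 are not read as support. Stard4 and Sqle, both among the 7, passed the filter only through SIRPα-KO, where they were higher.

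**Figure D2:**
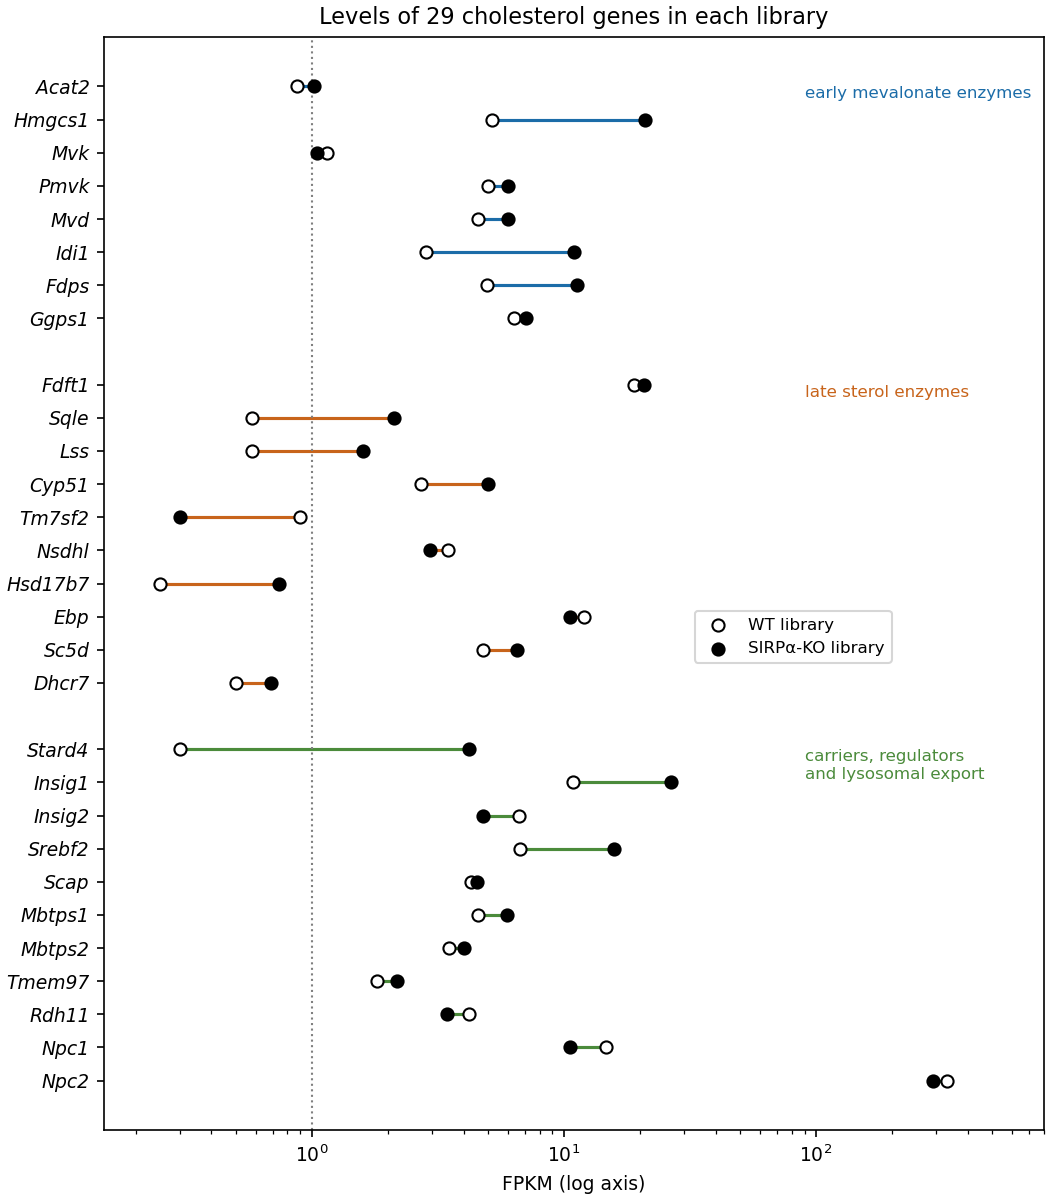
Level of each of the 29 genes in the WT library (open circles) and the SIRPα-KO library (filled circles), in FPKM on a log axis, with lines joining the values of 1 gene and a dotted line at 1 FPKM. The widest gaps are those of Stard4 (0.30 and 4.22 FPKM), Hmgcs1 (5.19 and 20.89 FPKM) and Idi1 (2.85 and 10.99 FPKM), all higher in SIRPα-KO.

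On the log2(FPKM + 1) scale the largest differences among the enzymes lay in the early mevalonate segment. They were those of Hmgcs1 and of the adjacent steps Idi1 and Fdps, and none of the other 5 early enzymes was called. That ranking depends on the scale, which shrinks low genes. As plain FPKM ratios the late enzymes Sqle (3.66), Hsd17b7 (2.96) and Lss (2.74) were above Fdps (2.275). Acat2 (gene number 110460), which joins acetyl-CoA units at the first step, stood at 0.87 FPKM (WT) and 1.02 FPKM (SIRPα-KO). It shares 39.1% of its 50-base words with Acat3 (12.27 and 14.96 FPKM), so both values depend on how shared reads were assigned. Hmgcs1 (gene number 208715, chromosome 13), the cytosolic synthase that makes HMG-CoA, stood at 5.19 FPKM (WT) and 20.89 FPKM (SIRPα-KO). That is a 4.03-fold higher level, with a log2 ratio of 1.82 (interval 1.63 to 2.02) resting on about 198 and 789 reads.

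The kinases and the decarboxylase that follow were not called. Mevalonate kinase (Mvk) stood at 1.15 FPKM (WT) and 1.05 FPKM (SIRPα-KO). Phosphomevalonate kinase (Pmvk) was at 5.01 and 5.98 FPKM, and the decarboxylase Mvd at 4.56 and 6.00 FPKM. The counting intervals of all 3 held 0, so no difference was detectable at this depth.

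Idi1 (gene number 319554, chromosome 13), the isomerase that interconverts the 5-carbon isoprenoid units, stood at 2.85 FPKM (WT) and 10.99 FPKM (SIRPα-KO). Its log2 ratio was 1.64 (interval 1.38 to 1.90), a 3.86-fold higher level. Its relative Idi2 stood at 0.08 FPKM (WT) and was listed at 0 (SIRPα-KO). Fdps (gene number 110196, chromosome 3), which condenses these units to farnesyl diphosphate, was at 4.94 and 11.24 FPKM, with a log2 ratio of 1.04 (interval 0.69 to 1.42). Idi1 and Fdps share 25.3% and 26.2% of their words with other annotated genes, mostly predicted ones that are not in the deposited tables. Ggps1, which draws farnesyl diphosphate off into the geranylgeranyl branch used to anchor proteins to membranes, stood at 6.32 FPKM (WT) and 7.10 FPKM (SIRPα-KO), with an interval that held 0 (-0.05 to 0.35). Fdps, before this branch point, was thus called higher and Ggps1 was not. Fdft1, which opens the sterol branch, was not called either, with a log2 ratio of 0.125 (interval -0.01 to 0.26).

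In the late sterol segment none of the 10 enzymes reached 2-fold on the log2(FPKM + 1) scale. Sqle, Lss and Cyp51, which act from squalene to the first demethylation, were higher in SIRPα-KO. Of these, Sqle and Lss passed the filter only through that library. Fdft1, squalene synthase, opens the segment and was close to equal at 18.89 FPKM (WT) and 20.69 FPKM (SIRPα-KO). It shares 17.2% of its words with the very abundant Ctsb (1579.96 and 1537.77 FPKM), so its level is uncertain. Sqle, squalene epoxidase, stood at 0.58 FPKM (WT) and 2.12 FPKM (SIRPα-KO), 3.66-fold higher on about 18 and 64 reads. Its log2 ratio of 0.98 (interval 0.60 to 1.29) put it just outside the 2-fold limit, with Fdps at 1.04 just inside. With a pseudocount of 0.5 or 0.1 in place of 1, Sqle was called higher as well.

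Lss, the cyclase that closes the sterol rings, stood at 0.58 FPKM (WT) and 1.59 FPKM (SIRPα-KO), with a log2 ratio of 0.71 (interval 0.42 to 0.97). Cyp51, the demethylase that follows, was at 2.71 and 5.02 FPKM, with a log2 ratio of 0.70 (interval 0.44 to 0.95). Sqle, Lss and Cyp51 thus differed in the same direction beyond counting error, from low levels. Their shared direction is not read as support, because Sqle and Lss passed the filter only through SIRPα-KO. Intervals wholly above 0 were also common, at 32.5% of kept genes with a transcript length.

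The enzymes that finish cholesterol went in both directions. Tm7sf2, a sterol reductase, stood at 0.90 FPKM (WT) and 0.30 FPKM (SIRPα-KO), on only about 15 and 5 reads. Nsdhl, an enzyme of demethylation, was at 3.48 and 2.95 FPKM, and Ebp, a sterol isomerase, at 12.04 and 10.53 FPKM; both intervals held 0. Hsd17b7, a ketoreductase, was at 0.25 and 0.74 FPKM on about 13 and 37 reads. Sc5d, a desaturase, was at 4.79 and 6.49 FPKM, with a log2 ratio of 0.37 (interval 0.17 to 0.57). Dhcr7, the reductase of the last step in one branch, was at 0.50 and 0.69 FPKM. Of the late enzymes 7 of 10 were higher in SIRPα-KO and 3 lower, with 5 intervals wholly above 0 and 1 wholly below.

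**Figure D3:**
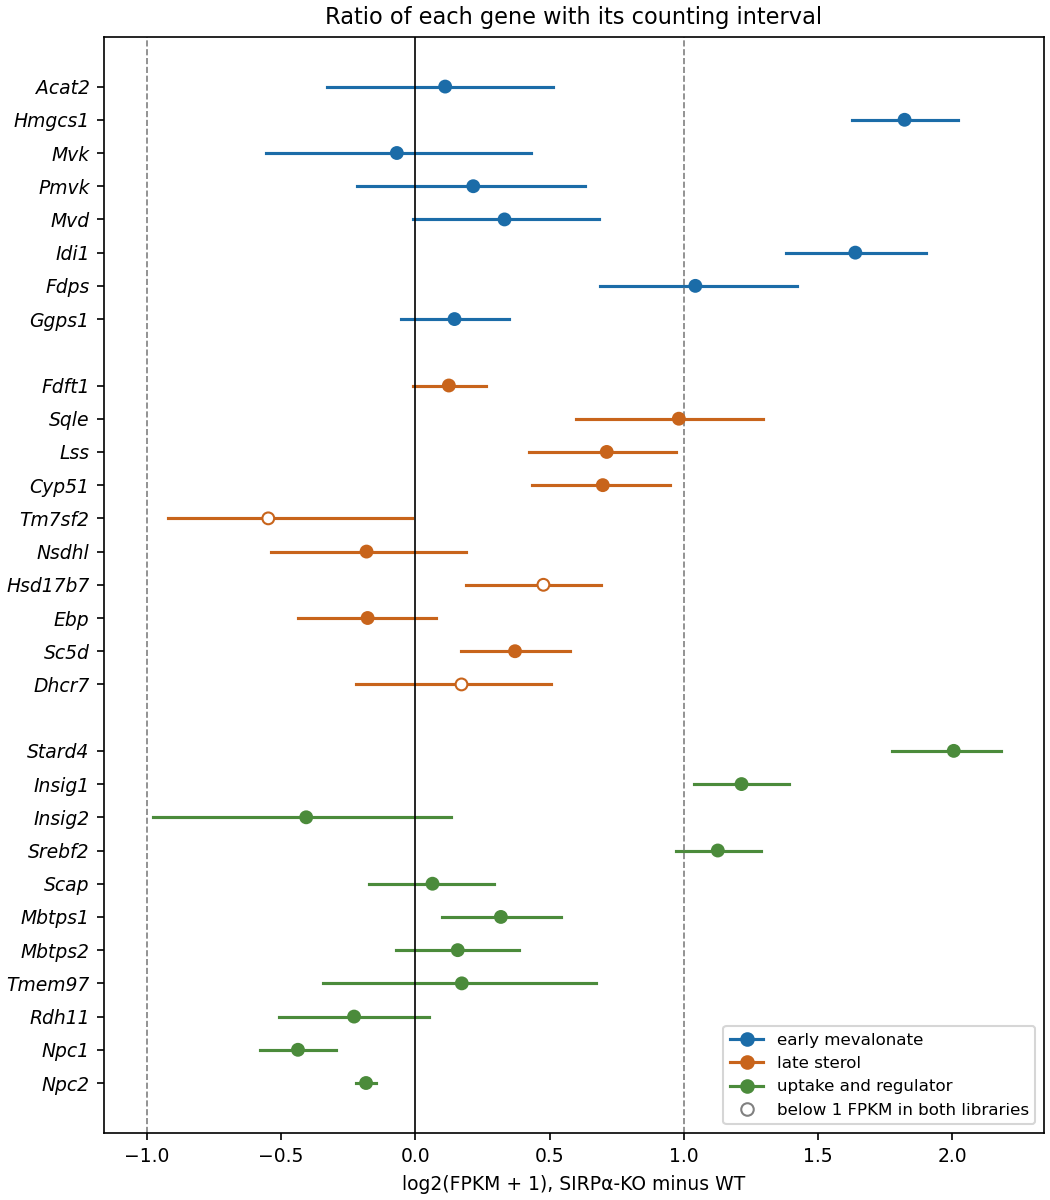
The log2 ratio of each gene (points; open where the gene was below 1 FPKM in both libraries) with its 95% counting interval (lines), in pathway order; the horizontal axis is log2(FPKM + 1) in SIRPα-KO minus WT, and dashed lines mark 2-fold. Stard4, Hmgcs1, Idi1 and Insig1 have intervals wholly above 2-fold, and Npc1, Npc2 and Tm7sf2 have intervals wholly below 0.

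The contrast between early and late enzymes depended on how it was summarized. The median log2 ratio was 0.27 over the 8 early enzymes and 0.37 over the 7 kept late ones, a difference of -0.10. With means in place of medians the difference was 0.29, and with no filter on low values it was 0.0023. At the main settings the early segment held all 3 enzymes called higher, but this too depended on the setting. The late enzyme Sqle was called as well with a pseudocount of 0.5 or 0.1. Fdps was not called when the median gene, or the trimmed mean of genes, was set equal. The middle of the early and late distributions did not differ in a stable direction. The enzymes of both segments together had a median of 0.33, which was 0.17 above that of the carriers and regulators (0.16). That gap is not read as support, because Acat2, Sqle, Lss and, among the regulators, Stard4 passed the filter only through SIRPα-KO; with no filter it was 0.12. Added over all steps, FPKM summed to 30.89 in WT and 64.27 in SIRPα-KO for early enzymes, most of the gap being Hmgcs1, Idi1 and Fdps, and to 44.72 and 51.12 for late enzymes.

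Among the carriers, Stard4 (gene number 170459) had the highest ratio of the 29 genes. STARD4 is a soluble protein that ferries cholesterol between membranes and delivers it to the endoplasmic reticulum. Stard4 stood at 0.30 FPKM (WT) and 4.22 FPKM (SIRPα-KO), on about 17 and 235 reads. The level was 14.1-fold higher, while the log2 ratio on the log2(FPKM + 1) scale was 2.01 (interval 1.78 to 2.18), since that scale shrinks a difference that starts below 1 FPKM. None of its words (0%) occurred in another annotated gene.

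SREBP2 and the proteins that hold and release it did not move as a block. Srebf2 (gene number 20788, chromosome 15) stood at 6.68 FPKM (WT) and 15.77 FPKM (SIRPα-KO), a 2.36-fold higher level with a log2 ratio of 1.13 (interval 0.97 to 1.29). Insig1 (gene number 231070, chromosome 5), whose protein retains SCAP and is itself induced by SREBP2, was at 10.85 and 26.51 FPKM, with a log2 ratio of 1.22 (interval 1.04 to 1.39). Insig2, the form known to depend little on SREBP2, was at 6.66 and 4.78 FPKM, with a log2 ratio of -0.41 and an interval that held 0 (-0.98 to 0.13). That interval rests on about 50 and 35 reads, taken from the shortest matched transcript of 674 bases. A longer transcript would give more reads and a narrower interval. The intervals of Insig1 and Insig2 did not overlap, so within this pair of libraries their ratios differed beyond counting error.

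Scap, the escort, stood at 4.28 FPKM (WT) and 4.52 FPKM (SIRPα-KO), with an interval of -0.17 to 0.29. Mbtps1, encoding the protease that cuts first, was at 4.58 and 5.96 FPKM, with a log2 ratio of 0.32 (interval 0.10 to 0.54). Mbtps2, encoding the protease that cuts second, was at 3.49 and 4.01 FPKM, with an interval that held 0; it shares 27.6% of its words with Yy2, which was below 2 FPKM in both libraries. The genes for SREBP2 and 1 retention protein were therefore above 2-fold, and those for the escort and the proteases were not.

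The remaining members serve sterol handling around the lysosome or respond to SREBP2. Tmem97, which binds NPC1 and is known as the sigma-2 receptor, stood at 1.82 FPKM (WT) and 2.18 FPKM (SIRPα-KO). Rdh11, a retinal reductase and known SREBP target, was at 4.20 and 3.44 FPKM. Both counting intervals held 0. Npc1, the membrane protein that exports cholesterol from lysosomes, was at 14.65 and 10.56 FPKM, with a log2 ratio of -0.44 (interval -0.58 to -0.30). Npc2, its soluble partner and the most abundant member by far, was at 331.15 and 291.50 FPKM, with a log2 ratio of -0.18 (interval -0.22 to -0.15). The export genes were thus slightly lower in SIRPα-KO, beyond counting error but far from 2-fold, while Stard4 was higher.

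**Figure D4:**
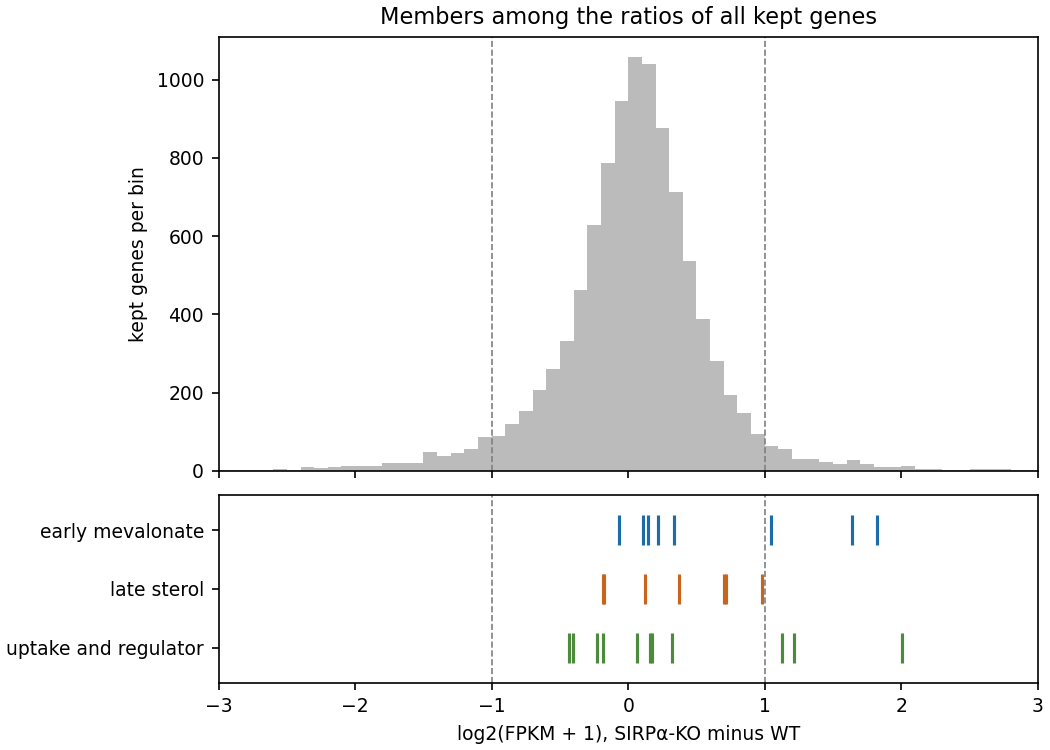
Histogram of the log2 ratios of the 10092 kept genes (upper panel, bins of 0.1) with the kept members of each group as ticks (lower panel); the horizontal axis is log2(FPKM + 1) in SIRPα-KO minus WT, dashed lines mark 2-fold, and 41 genes lie outside the range from -3 to 3. The 6 members beyond 2-fold are all on the side of SIRPα-KO, and most other members lie within the bulk of genes.

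The members were also described by level and by chromosome. The median level over the 29 was 4.28 FPKM (WT) and 5.02 FPKM (SIRPα-KO), with 3 members below 1 FPKM in both libraries. Over all kept genes, which leave out such low genes, it was 7.10 and 7.56 FPKM. These medians thus cover unlike sets. The 3 X-linked members, Nsdhl, Ebp and Mbtps2, had log2 ratios of -0.18, -0.18 and 0.16, and each interval held 0, beside the difference in Xist given above. The 6 called members lay on 5 chromosomes, with Hmgcs1 and Idi1 both on chromosome 13.

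Neighbouring pathways were described with lists of 12 to 19 genes. Of 18 further genes of sterol and isoprenoid metabolism 0 were called in either direction, with a median log2 ratio of 0.27 over 16 kept. That median is not read as support, because Lbr, Pdss2 and Fntb passed the filter only through SIRPα-KO. With no filter on low values it was 0.18. The highest was Sc4mol (also named Msmo1), the oxidase that acts between Cyp51 and Nsdhl, at 5.47 FPKM (WT) and 11.90 FPKM (SIRPα-KO), with a log2 ratio of 0.996 (interval 0.72 to 1.27), a trace below the 2-fold limit. It was picked out after its value was seen. The most abundant gene of that list in SIRPα-KO was Nus1, a subunit of the enzyme that makes dolichol, at 9.87 and 17.81 FPKM.

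Of 18 genes of sterol sensing and degradation in the endoplasmic reticulum, 1 was called higher and 0 lower, with a median of 0.06. The called gene was Erlin1, whose protein binds cholesterol in the endoplasmic reticulum and restrains the activation of SREBP proteins, at 17.16 and 36.59 FPKM. Of 15 genes of SREBP1 and fatty acid synthesis 9 were kept and 0 called, with a median of 0.06. The median became -0.0016 when the median gene was set equal, and 0.03 with no filter. Fasn passed the filter only through SIRPα-KO. Srebf1, the gene for the related factor SREBP1, stood at 6.84 FPKM (WT) and 12.59 FPKM (SIRPα-KO), short of 2-fold at a log2 ratio of 0.79; it was named after its values were seen. Acly, which makes cytosolic acetyl-CoA for both fatty acid and sterol synthesis, was the most abundant gene of the list, at 17.67 and 25.64 FPKM.

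The called genes of sterol transport and of the liver X receptor list were lower in SIRPα-KO, while most genes of both lists were not called. Of 19 transport genes 0 were called higher and 3 lower, with a median log2 ratio of -0.19 over 18 kept, 6 of which had a ratio above 0. The 3 were Lipa, the lysosomal lipase that frees cholesterol from its esters (148.61 and 60.62 FPKM), Gramd1b, which moves cholesterol from the plasma membrane to the endoplasmic reticulum (4.30 and 1.49 FPKM), and Stard5, a relative of Stard4 (18.21 and 8.47 FPKM). Of 12 liver X receptor and efflux genes 0 were called higher and 3 lower, with a median of -0.35 and 4 ratios above 0. The receptor genes themselves were close to equal, Nr1h2 at 35.36 and 35.76 FPKM and Nr1h3 at 17.44 and 17.87 FPKM, both named after their values were seen. Lower were Ch25h, whose product 25-hydroxycholesterol is a ligand of both INSIG proteins and the liver X receptors (582.27 and 48.10 FPKM), the exporter Abca1 (27.88 and 2.10 FPKM) and Mylip, a ubiquitin ligase for lipoprotein receptors (80.34 and 34.20 FPKM). These lists were drawn up with earlier results of these data known, so their directions are not independent evidence.

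**Figure D5:**
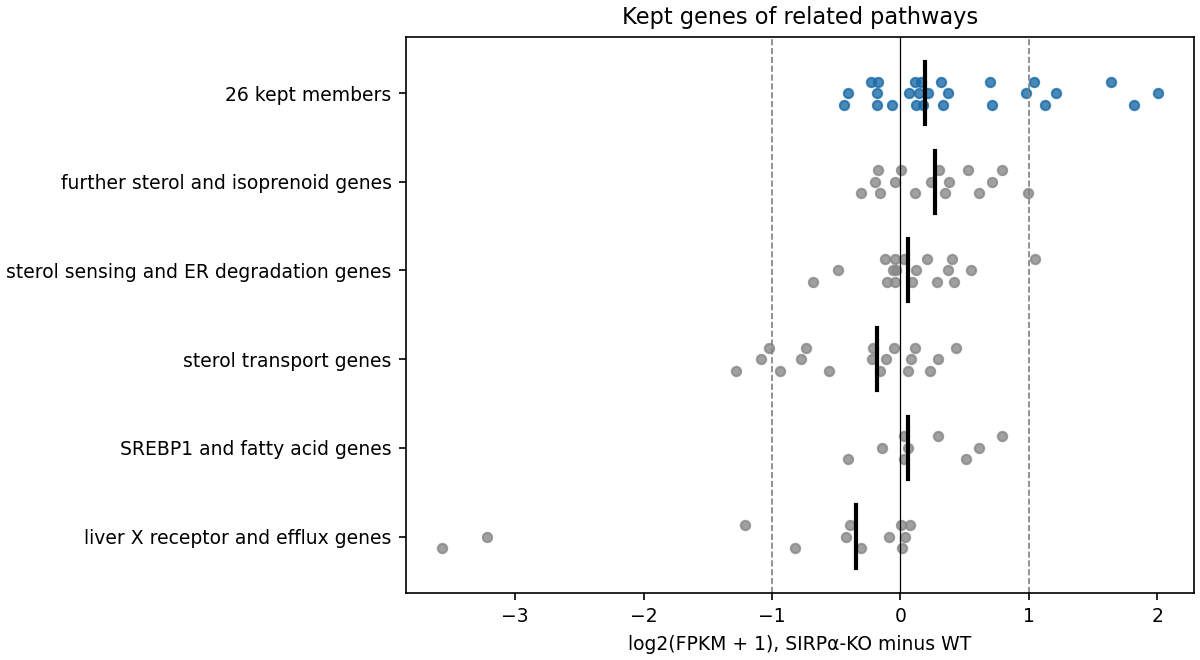
Log2 ratios of kept genes (points) of the members and of 5 lists of related genes, with the median of each as a black bar; the horizontal axis is log2(FPKM + 1) in SIRPα-KO minus WT, and dashed lines mark 2-fold. All 6 called members are to the right of 2-fold, and the 3 called transport genes and 3 called liver X receptor genes are to the left.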

How the data were processed

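RNA from 2 pooled libraries of activated macrophages was sequenced after library preparation with BGI protocols, per the labels' protocols. The authors deposited 1 table per library with 1 value per gene, taken here to be FPKM from the values, since no header names a unit: low values are spaced by transcript length. The submitters' processing notes name mm9, R 3.3.3 and DESeq2 without a role. Aligner, counting program and strand setting: not given in the sources used here; reads of overlapping genes cannot be told apart.

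The analysis used Python 3.11.15, numpy 2.4.6, pandas 2.3.3 and scipy 1.17.1. Depth was estimated from the spacing of low values of genes with 1 transcript under 1500 bases (GENCODE M21 lengths): in WT 69.2% of 695 such values, and in SIRPα-KO 67.3% of 722, came within 0.15 reads of a whole number. On a transcript of 2 kb, 10 reads equal 0.453 and 0.458 FPKM. Too few values came out whole for a test on counts. Approximate reads use the shortest matched transcript and give the exact binomial intervals. Ratios used a pseudocount of 1 FPKM, a minimum of 1 FPKM in either library and a 2-fold limit, and were tested on simulated data. Shared sequence is the share of a gene's 50-base words found in other GENCODE genes. Gene numbers were matched to RefSeq (16211 of 16263 found). All members were to be described, with called genes of the other lists. The members and lists were chosen with earlier results of these data known. Alternatives were other pseudocounts, filters, scalings and fold limits.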

Additional observations from a re-analysis of the deposited data

How the results depend on the processing

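With 1 library per group no replicate could be left out, and no test was possible. No paired analysis was possible because each group holds 1 pooled library. Of 87 alternative values of the summary results, 85 stayed within a range drawn from the counting intervals or within 1.5 times the count. The others were the number of members called higher, 3 in place of 6 with a 3-fold limit (Hmgcs1, Idi1 and Stard4; 1.29% of kept genes), and the median of the early mevalonate genes, 0.69 in place of 0.27 with a minimum of 5 FPKM. The range for a median ran between the medians of the lower and upper limits of single genes, and for a difference it was wider still. Changes of sign given below stayed inside it, and so did 9 calls in place of 6. The number 85 is therefore not read as a measure of stability. Members called higher numbered 8 with a pseudocount of 0.1, adding Sqle and Lss (5.84% of kept genes). They numbered 9 with a 1.5-fold limit (10.9% of kept genes), adding Cyp51 as well. In each setting 0 were called lower. Tm7sf2 had a log2 ratio of -1.32 with a pseudocount of 0.1. It was left out by the filter, being below 1 FPKM in both libraries. No member changed the sign of its ratio under the 3 scalings or the 2 other pseudocounts. Of the member ratios under these settings, 135 stayed within their counting interval and 10 moved outside it. Among those that moved was Stard4, at 3.43 and 2.56 with pseudocounts of 0.1 and 0.5 in place of 2.01. Npc2 also moved, to -0.25 in place of -0.18 when the median gene was set equal. The early minus late difference changed sign with means (0.29), without the filter (0.0023) and at a minimum of 5 FPKM (0.44); the cause was not tested. Depth limits Stard4, Sqle, Tm7sf2, Hsd17b7, Dhcr7, Mvk and Acat2, each resting on about 22 reads or fewer in at least 1 library.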
